A study of Mus musculus with 36 samples.

Results

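The clustered histone genes are the rows of the count tables named Hist1h, Hist2h, Hist3h or Hist4h, and 63 of the 21955 rows in each table carried such a name. They comprised 6 linker histone H1 genes, 16 H2A genes, 17 H2B genes, 11 H3 genes and 13 H4 genes. The Hist1 cluster on chromosome 13 held 51 of them, the Hist2 cluster on chromosome 3 held 8, the Hist3 cluster on chromosome 11 held 3, and Hist4h4 on chromosome 6 stood alone (positions on GRCm38 from the GENCODE M21 annotation). Total RNA was sequenced after removal of ribosomal RNA from livers of C57BL/6JN mice, young at 4 months or old at 18 months. Each age was sampled before regeneration and at the time points 48, 72, 96, 120 and 240, whose unit is not given in the sources used here, nor is the procedure that started regeneration. Each of the 12 groups held 3 libraries, described as biological replicates, and no other genotype or treatment was given. Spike-in controls were added as a different mix at each age, and no spike-in rows are used here.

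Histones package DNA: pairs of H2A, H2B, H3 and H4 form the nucleosome core and H1 binds the linker DNA between cores. Most genes of the clusters are replication-dependent, which means that they are transcribed in S phase to supply the newly made DNA. Their messages usually lack introns and a poly(A) tail, and end in a conserved stem-loop that the stem-loop binding protein Slbp recognises. Libraries made from total RNA can record such messages, while libraries selected for poly(A) tails lose most of them. In an adult liver few hepatocytes divide, and many enter S phase when part of the organ is lost.

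The stem-loop was looked for in the annotated transcripts because it is the feature that distinguishes these messages. The histone stem-loop motif was matched on the sense strand of a transcript model of 41 of the 63 genes, and of 0.167% of 58797 protein-coding transcripts. The sites of 4 genes follow, with 5 bases on either side and the matched letters in capitals, from GENCODE M21. The first pair belongs to abundant H1 genes, the third to an abundant H4 gene and the fourth to Hist1h1t, an H1 gene of the male germ line.

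Hist1h1e: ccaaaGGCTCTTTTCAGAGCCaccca
Hist1h1c: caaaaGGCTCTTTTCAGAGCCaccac
Hist1h4c: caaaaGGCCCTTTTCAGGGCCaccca
Hist1h1t: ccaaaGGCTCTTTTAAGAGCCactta

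The first 2 sites had the same 16 matched letters, the H4 site had other letters in the arms of the stem, and the germ line site had another letter in the loop. For 22 genes no model held the letters, and Hist1h1a, Hist1h1b, Hist1h2bn and Hist2h2bb were among them. The models of Hist1h1a, Hist1h1b, Hist1h2bn and Hist2h2bb have 741, 743, 381 and 381 bases, and absence of the letters says only that they are not in these models.

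Total counts lay between 2328233 and 6034446 per library (median 4439170), of which 2720 to 36359 fell on clustered histone genes. Levels are given as CPM (counts scaled to a common library size) with totals adjusted by edgeR's TMM factors, and a gene was called where edgeR's quasi-likelihood test gave a Benjamini-Hochberg adjusted p under 0.05 over 13436 tested genes. After the filter on low counts 54 of the 63 genes were tested. The other 9 were Hist1h1t, Hist1h2aa, Hist1h2ao, Hist1h2ba, Hist1h2bp, Hist1h4m, Hist2h2aa2, Hist2h3c1 and Hist3h2ba, and they had 4 to 137 counts each over all 36 libraries. Hist1h1t, Hist1h2aa and Hist1h2ba, known from the male germ line, had 36, 4 and 13 counts. The tested row Hist3h2bb-ps is a pseudogene by its name. Among the 54, 21 genes were above the filter's CPM minimum in every library, and the others passed through some groups only. Over the whole table the common biological coefficient of variation was 24.7%. Markers of hepatocytes summed to between 13432 and 26073 CPM per library. Markers of T and B cells summed to between 1.33 and 29.5 CPM, those of macrophages and monocytes to between 102 and 682 CPM, and those of neutrophils to between 0.969 and 28.0 CPM. Y-linked transcripts were present in 12 libraries, 1 in each group.

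Near-identical coding sequences limit how well reads can be assigned within this family, and how reads with several matches were counted is not given in the sources used here. Over 50% of the 50-base words of a gene's models also occurred in another gene's models for 29 of the 63 genes. For Hist2h2aa2, Hist2h3b, Hist2h3c1 and Hist2h2bb every word was shared, so their counts are uncertain. No word of Hist1h1a, Hist1h1b, Hist1h1t or Hist2h2be was shared.

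In livers of young mice the clustered histone genes rose together at 48. Their summed level was 1215, 1277 and 1222 CPM before and 5941, 4821 and 4946 CPM at 48. It was 1673, 3692 and 1725 CPM at 72. The group means were 1238 ± 34.1 CPM (SD, n = 3) before and 5236 ± 614 at 48. They were 2363 ± 1151 CPM at 72 and 1418 ± 298 at 96, and 1329.9 ± 81.7 at 120 against 984 ± 189 at 240. All 3 libraries at 48 thus lay far above those from before, and at 72 replicate 2 stood apart from the other 2. In livers of old mice the sums were 1729, 1341 and 1262 CPM before and 1957, 950 and 2306 CPM at 48. Old livers averaged 1444 ± 250.03 CPM before and 1738 ± 704 at 48. Their highest means were 2117 ± 292 CPM at 72 and 2159 ± 625 at 96, followed by 1667 ± 350.2 at 120 and 1112 ± 161 at 240. The old library replicate 2 at 48 was below every old library from before, and it also had the highest summed neutrophil markers of all libraries (28.0 CPM) and the lowest summed hepatocyte markers (13432 CPM), whose part in the result was not tested. In bulk tissue, fewer cells in S phase and less histone message per cell cannot be told apart.

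**Figure D1:**
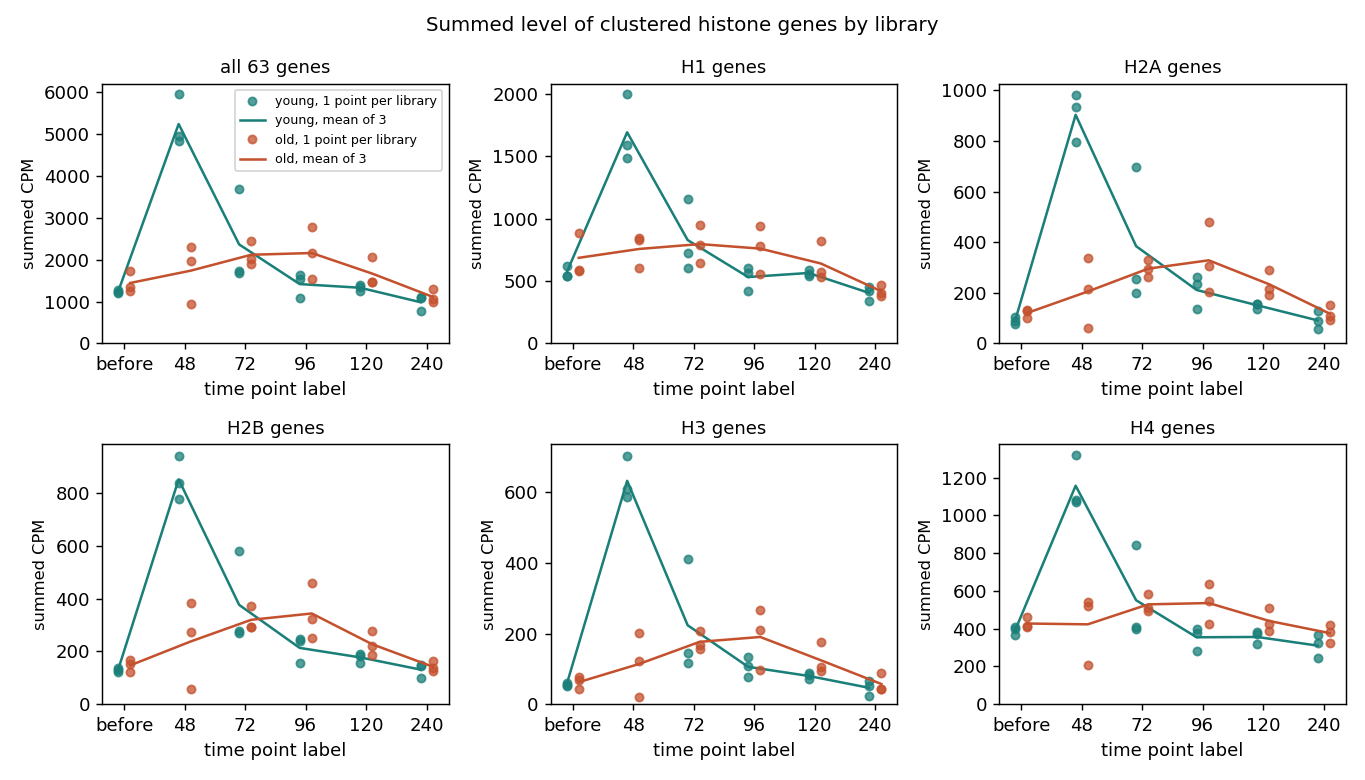
Summed CPM (vertical axis, linear) of all 63 clustered histone genes and of each class, against the time point label, with 1 point per library and lines through the means of 3 libraries, young in green and old in orange. The 3 young libraries at 48 sit between 4821 and 5941 CPM for all genes, above every other library in the series, while the old libraries spread between 950 and 2782 CPM.

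At 48 in young mice 53 of the 54 tested genes were called higher than before and none lower, where 12.2% of all tested genes were called higher and 9.88% lower. All 54 had their 3 libraries at 48 above their 3 libraries from before (20.6% of all tested genes did). Their median log2 change was 3.49, with a range from 0.62 to 6.03, and the median over all tested genes was -0.01. Of the 21 genes above the CPM minimum in every library 20 were called, with a median of 2.24. Hist1h2bc, an H2B gene with a long polyadenylated message in differentiated cells, was the exception: it had 84.5, 81.3 and 94.2 CPM before and 129, 132 and 139 CPM at 48, a log2 change of 0.62 ± 0.30 (SE) with an adjusted p of 0.147 in edgeR.

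Every class took part, where 12.2% of all tested genes were called higher. The counts and medians by class include genes that passed the filter on low counts through some groups only, which favoured large rises. H1 genes summed to 569 ± 47.2 CPM before and 1692 ± 271 at 48, with 5 of 5 tested genes called and a median log2 change of 2.43. H2A genes summed to 90.6 ± 12.9 and 903 ± 96.9 CPM, with 13 of 13 called and a median of 4.13. H2B genes summed to 131 ± 6.63 and 851 ± 82.1 CPM, with 13 of 14 called and a median of 4.21. H3 genes summed to 56.0 ± 4.81 and 633 ± 61.0 CPM, with 10 of 10 called and a median of 3.66. H4 genes summed to 391 ± 24.0 and 1157 ± 141 CPM, with 12 of 12 called and a median of 2.22. The H1 and H4 classes thus had the lower median changes and the higher sums before. All 5 tested H1 genes were above the filter's CPM minimum in every library, and the part of the filter in the order of the classes was not tested.

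The 3 genes with the smallest p at 48 were Hist2h2bb, Hist1h1b and Hist1h2bn. Hist2h2bb, an H2B gene of the Hist2 cluster whose words are all shared with another gene, had 9.78, 10.7 and 9.44 CPM before and 196, 125 and 143 CPM at 48. Its log2 change was 3.95 ± 0.51 (edgeR adjusted p = 3.37e-06). Hist1h1b, a replication-dependent H1, had 7.28, 10.9 and 8.96 CPM before and 256, 189 and 182 CPM at 48, a log2 change of 4.53 ± 0.60 (edgeR adjusted p = 4.61e-06). Hist1h2bn, an H2B gene, had 2.08, 1.74 and 0.969 CPM before and 70.6, 59.5 and 61.8 CPM at 48, a log2 change of 5.29 ± 0.70 (edgeR adjusted p = 4.61e-06). None of the 3 overlapped between the groups. The largest fitted change, 6.03 ± 0.81 on the log2 scale, was that of the H2B gene Hist1h2bl, and it rests on 2, 2 and 3 counts before against 240, 124 and 162 counts at 48.

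**Figure D2:**
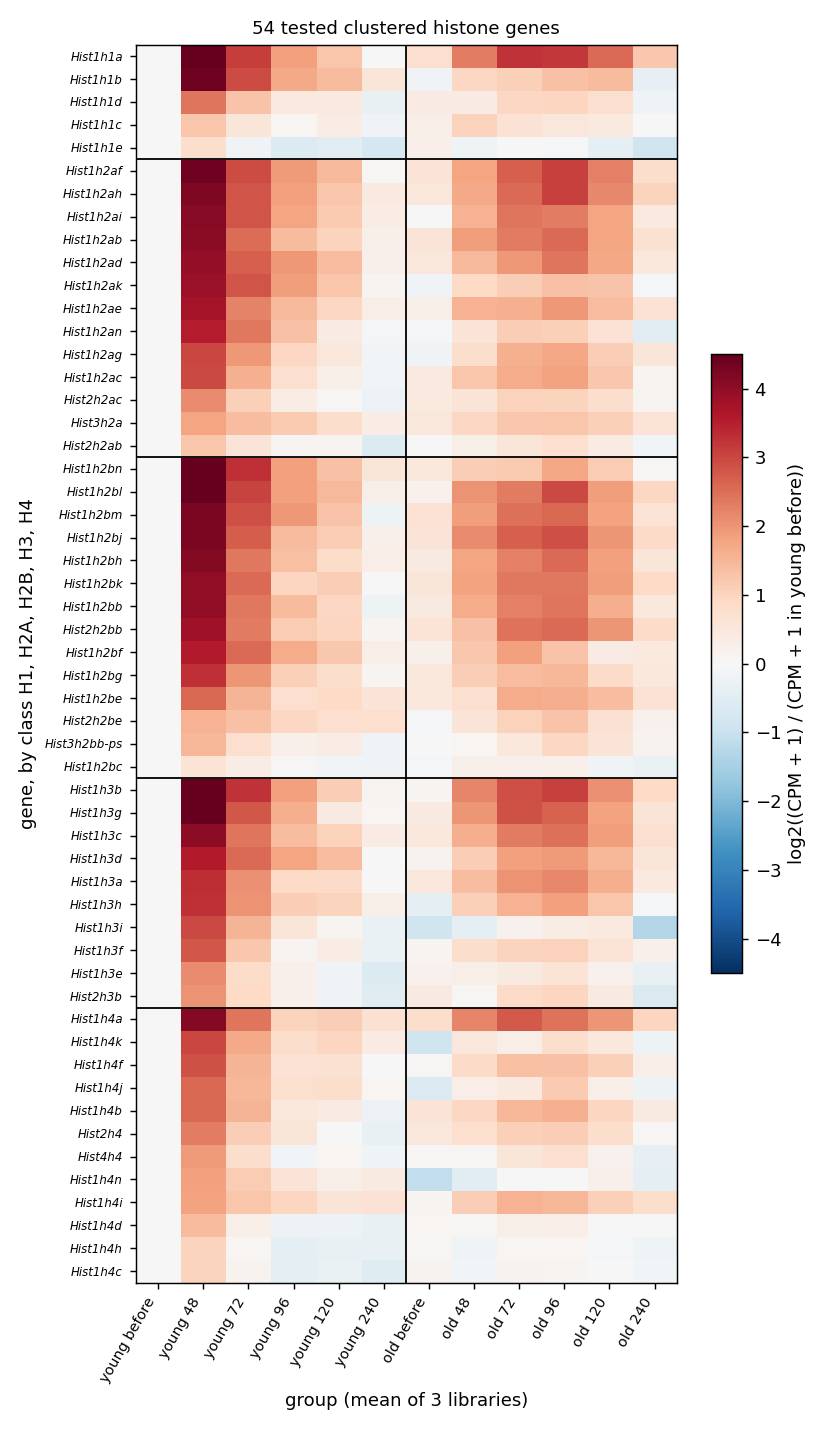
Heat map of the 54 tested clustered histone genes (rows, grouped by class and ordered within a class by their value in young 48) in the 12 groups (columns, means of 3 libraries). Colour gives log2 of the group's CPM plus 1 over CPM plus 1 in the young group before, red for higher and blue for lower; the young 48 column is the reddest for nearly all genes, and among the old columns 72 and 96 are reddest for most genes.

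The rise was unequal within the H1 class. Levels between genes are compared here per kilobase of annotated exon. Before, in young livers, Hist1h1e had 169 CPM per kilobase and Hist1h1c had 103, while Hist1h1a had 7.88 and Hist1h1b had 12.2. At 48 they had 291, 245, 235 and 281 CPM per kilobase, in that order. Per kilobase, Hist1h1a and Hist1h1b thus came from far below Hist1h1e to near its level, and Hist1h1a was chosen after its values were seen. This rests on the annotated lengths, 741, 743 and 1930 bases for Hist1h1a, Hist1h1b and Hist1h1e. In CPM, Hist1h1a and Hist1h1b stayed below Hist1h1e in every young library at 48. Hist1h1a had 6.24, 5.47 and 5.81 CPM before and 219, 186 and 118 CPM at 48, a log2 change of 4.89 ± 0.77 (edgeR adjusted p = 3.27e-05). Hist1h1c rose from 147, 183 and 152 CPM to 447, 345 and 357 CPM, a log2 change of 1.25 ± 0.23 (edgeR adjusted p = 0.000183). Hist1h1e rose from 330.4, 344 and 303 CPM to 662, 512 and 512 CPM, a log2 change of 0.79 ± 0.22 (edgeR adjusted p = 0.0111). Hist1h1d, whose annotated exons span 7425 bases, rose by 2.43 ± 0.42 (edgeR adjusted p = 8.58e-05).

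Of the core histone genes with the highest mean levels, Hist1h2bc, the most abundant H2B gene, was the one not called at 48 in young livers, as given above, and the others named here rose. Among the 3 H2A genes with the highest mean level, Hist1h2af had 3.12, 6.22 and 4.60 CPM before and 129, 108 and 114 CPM at 48, a log2 change of 4.66 ± 0.73 (edgeR adjusted p = 2.88e-05). Hist1h2ab rose by 4.25 ± 0.70 and was lower in old than in young livers at 48 by -2.22 ± 0.61. The H2B gene Hist1h2bb had 7.91, 9.70 and 7.02 CPM before and 149, 151 and 133 CPM at 48, a log2 change of 4.13 ± 0.62 (edgeR adjusted p = 1.6e-05). Hist1h3b, the H3 gene with the larger change of those named, had 3.75, 4.97 and 4.60 CPM before and 180, 161 and 152 CPM at 48, a log2 change of 5.21 ± 0.84 (edgeR adjusted p = 4.08e-05). In old livers at 48 it had 22.2, 0 and 50.5 CPM, so replicate 2 held no count of it. The H3 genes Hist1h3a and Hist1h3f rose by 3.52 ± 0.52 and 2.93 ± 0.49. The abundant H4 genes changed less: Hist1h4d rose by 1.44 ± 0.28 and Hist1h4h by 1.02 ± 0.25 (edgeR adjusted p = 0.000358 and 0.00387). Per kilobase of annotated exon the highest young level before was that of Hist1h4h, 186 CPM, and at 48 that of Hist2h2bb, 406 CPM, followed by Hist1h4h with 378 CPM.

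A lower rise in genes with a higher starting level held across the tested genes, as a description. The 18 tested genes with the lowest level before (0.547 to 2.51 CPM) had a median log2 rise of 4.68. The 18 in the middle (2.60 to 8.27 CPM) had 3.39 and the 18 highest (8.68 to 326 CPM) had 2.16. The level before enters the rise with the opposite sign, so they are not independent. The filter's CPM minimum was 2.25, and genes below it before could be tested only through other groups where they were higher. The filter thus favoured large rises in the lowest set. The annotated message end varied with both: 16 tested genes had a model that ran over 200 bases past the stem-loop letters, with a median level before of 10.3 CPM and a median rise of 2.29. The 18 genes whose model ended within 200 bases after the letters had medians of 4.17 CPM and 4.19. The 20 tested genes without the letters had 3.92 CPM and 4.10. Members reported to give polyadenylated messages in differentiated tissue numbered 6 in the list used, of which 5 stood in the tables and 4 were tested. Of these 4, 3 rose at 48 in young livers (12.2% of all tested genes rose).

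By 72 the rise in young livers had become smaller and uneven between mice. Of the 54 tested genes 41 were called higher than before and none lower (9.26% of all tested genes were called higher and 8.23% lower), with a median log2 change of 2.18, and 44 had groups that did not overlap (18.0% of all tested genes). Of the 21 genes above the CPM minimum in every library 12 were called, with a median of 1.28. Without young replicate 2 at 72, the library with 3692 CPM, 20 of the 54 were called. The 3 with the smallest p were Hist1h2bn, Hist1h1b and Hist1h2bl. Hist1h2bn had 11.7, 51.8 and 9.16 CPM at 72, a log2 change from before of 3.88 ± 0.70 (edgeR adjusted p = 0.000521). Hist1h1b had 60.2, 136 and 31.3 CPM, a log2 change of 3.07 ± 0.58 (edgeR adjusted p = 0.00075). Hist1h2bl had 8.22, 21.9 and 5.34 CPM, a log2 change of 4.37 ± 0.84 (edgeR adjusted p = 0.00089). In each of the 3 genes replicate 2 was the highest library.

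The step from 48 to 72 in young livers was downward for all 54 tested genes, with a median log2 change of -1.31. These include genes that passed the filter on low counts through some groups only, young 48 among those groups. For such genes the filter favoured a fall from 48. Hist1h4d, Hist1h1e and Hist1h4c were called lower (0.871% of all tested genes were called lower), and 43 genes had no overlap between 48 and 72 (12.4% of all tested genes). Hist1h4c, an H4 gene, had 311, 259 and 271 CPM at 48 and 112, 225 and 126 CPM at 72, a log2 change of -0.86 ± 0.22 (edgeR adjusted p = 0.0426). The count of 3 rested on single libraries: it was 22 without young replicate 2 at 72, and 0 without young replicate 1 or 3 at 48 or without young replicate 1 or 3 at 72. At 96, 120 and 240 no gene was called against before in young livers by edgeR (1.44%, 0.595% and 0.26% of all tested genes were called). The unadjusted p was under 0.05 in edgeR for 27, 18 and 2 of the 54 genes, and for 2072, 1631 and 700 of all 13436 tested genes. DESeq2 called 7, 0 and 0 of the 54. With the compared groups fitted alone edgeR called 20 at 96 and 10 at 120. The shares of all tested genes called are from edgeR's fit over all libraries, and none is given for these alternatives. At 96 and at 120 alike, 34 of the 54 genes had all 3 libraries above those from before (13.9% and 11.7% of all tested genes did). Median log2 changes at 96, 120 and 240 were 1.19, 0.92 and 0.09. Every one of the 54 tested genes had its highest young group mean at 48, which the filter also favoured for genes that passed through some groups only.

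In old livers fewer genes passed, and most of the highest means came at 72 or 96. At 48, 10 of the 54 tested genes were called higher than before and none lower (12.3% of all tested genes were called higher and 12.1% lower), with a median log2 change of 0.91. Of the 21 genes above the CPM minimum in every library 2 were called, with a median of 0.35. Only Hist1h1c had 3 libraries at 48 above all 3 from before (14.9% of all tested genes did). The 10 calls were Hist1h1c, Hist1h2ai, Hist1h2bj, Hist1h2bl, Hist1h3b, Hist1h3g, Hist1h3h, Hist1h4a, Hist1h4i and Hist1h4k, some of them named after their values were seen. Hist1h1c, an H1 gene that is also active outside S phase, had 271, 174 and 145 CPM before and 415, 292 and 292 CPM at 48, a log2 change of 0.76 ± 0.23 (edgeR adjusted p = 0.0159). Hist1h4k, an H4 gene, had 1.64, 2.46 and 0.684 CPM before and 4.67, 1.82 and 11.05 CPM at 48, a log2 change of 1.85 ± 0.57 (edgeR adjusted p = 0.0185), and its groups overlapped through replicate 2 at 48. The count was 32 without old replicate 2 at 48, 3 without replicate 1 and 1 without replicate 3. It was 3 and 0 without old replicates 2 and 3 from before, and 0 with these 6 libraries fitted alone.

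At 72 and at 96, 23 of the 54 tested genes were called higher than before in old livers, and none lower. Of the 21 genes above the CPM minimum in every library 4 were called at each time, with median log2 changes of 0.61 and 0.78. Of all tested genes 6.71% were called higher and 5.92% lower at 72, and 3.77% higher and 3.08% lower at 96. Median log2 changes of the 54 were 1.55 and 1.60, and 40 and 37 genes had groups that did not overlap, against 15.4% and 13.0% of all tested genes. Hist1h4i, the H4 gene with the smallest p at 72, had a log2 change of 1.63 ± 0.39 (edgeR adjusted p = 0.00613). The H2A gene Hist1h2ai had one of 2.67 ± 0.64 (edgeR adjusted p = 0.00665) and the H3 gene Hist1h3g one of 2.80 ± 0.68 (edgeR adjusted p = 0.00687). Hist2h2bb had 15.5, 16.5 and 15.7 CPM before, 55.0, 73.9 and 48.1 CPM at 72 and 52.4, 106 and 29.5 CPM at 96, with no overlap with before at either time. The counts moved with single libraries: the count at 72 was 10 and 2 without old replicates 2 and 3 from before, and 15, 12 and 12 without replicates 1, 2 and 3 at 72. At 96 it was 8 and 1 without old replicates 2 and 3 from before, and 12 and 1 without replicates 1 and 2 at 96. With the 24 libraries without Y-linked transcripts it was 3 at 72 and 2 at 96.

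The highest old group mean fell at 96 for 37 of the 54 tested genes and at 72 for 11, but without old replicate 2 at 96 it fell at 96 for 14 and at 72 for 33. Without old replicate 3 at 96 these counts were 47 and 3. With all libraries it fell at 120 for Hist1h1b, Hist1h3i and Hist1h4n, at 48 for Hist1h1c and Hist1h2bc and before regeneration for Hist1h1e. At 120 edgeR called no gene against before (4.05% of all tested genes). Its unadjusted p was under 0.05 for 28 of the 54 genes and for 2600 of all 13436 tested genes. DESeq2 called 7 of the 54, and edgeR called 5 with the compared groups fitted alone, with no share of all tested genes given for either. All 3 libraries at 120 lay above those from before for 30 genes (10.7% of all tested genes). At 240 Hist1h1e was called lower (0.127% of all tested genes were called lower): it had 460.4, 319 and 372 CPM before and 183, 180.4 and 162 CPM at 240, a log2 change of -1.13 ± 0.23 (edgeR adjusted p = 0.0309). That call was lost without old replicate 1 or 3 from before and without any of the 3 replicates at 240. Between 48 and 72 in old livers edgeR called none of the 54 (2.92% of all tested genes), and DESeq2 called 0. The unadjusted p in edgeR was under 0.05 for 2 of the 54 and for 2570 of all 13436 tested genes. Without old replicate 3 at 48 the count of edgeR calls was 6.

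**Figure D3:**
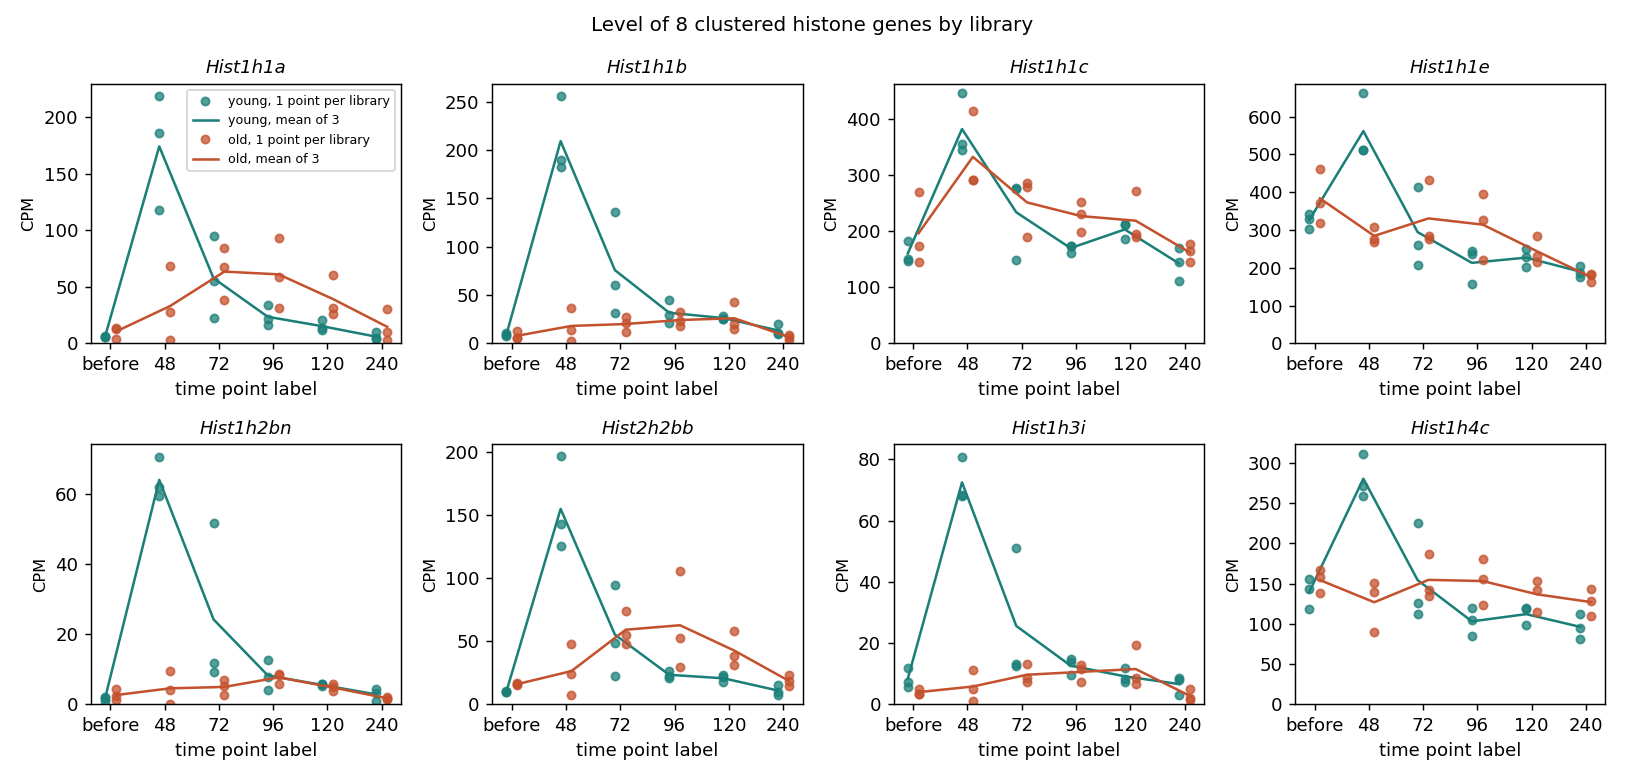
CPM (vertical axes, linear, each with its own range) of 8 clustered histone genes against the time point label, 1 point per library and lines through means of 3, young in green and old in orange. Young livers peak at 48 in all 8 genes; in old livers Hist1h1c is highest at 48, Hist2h2bb has its highest mean at 96 with replicate 2 far above the others, and Hist1h1b and Hist1h3i have theirs at 120.

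Old and young livers were compared directly at each time point. Before regeneration edgeR called none of the 54 genes (0.0595% of all tested genes) and DESeq2 called 0. The unadjusted p in edgeR was under 0.05 for 1 of the 54 and for 952 of all 13436 tested genes. The median log2 difference before, old minus young, was 0.36. All 3 old libraries lay above all 3 young ones for 9 of the 54 (8.04% of all tested genes) and below them for 3 (6.32%). At 48, 49 genes were lower in old livers and none higher, where 6.88% of all tested genes were called lower and 4.5% higher, and 50 had all 3 old libraries below all 3 young ones (12.8% of all tested genes). The median log2 difference, old minus young, was -2.29 and its range -3.81 to -0.20. Of the 21 genes above the CPM minimum in every library 17 were called lower, with a median of -1.73. Leaving out any one of the 6 libraries at 48 gave 43 to 53 calls. In a fit of these 6 libraries alone no clustered histone gene was called, the smallest adjusted p was 0.0754, 50 had an unadjusted p under 0.05, and 1 gene was called in the whole table.

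The smallest p at 48 belonged to Hist1h3i, Hist4h4 and Hist1h1b. The H3 gene Hist1h3i had 80.9, 68.0 and 68.5 CPM in young and 5.11, 1.22 and 11.05 CPM in old livers, a log2 difference of -3.64 ± 0.55 (edgeR adjusted p = 0.000222). The H4 gene Hist4h4 had 39.4, 43.2 and 33.8 CPM in young and 12.7, 4.66 and 12.3 CPM in old livers, a log2 difference of -1.98 ± 0.31 (edgeR adjusted p = 0.000307). Hist1h1b had 256, 189 and 182 CPM in young and 14.4, 3.04 and 37.0 CPM in old livers, a log2 difference of -3.52 ± 0.56 (edgeR adjusted p = 0.000311). All 3 genes separated the ages without overlap, also apart from old replicate 2, the lowest library of each. The 5 tested genes not called were Hist1h1c, Hist1h2bc, Hist1h4i, Hist2h2be and Hist3h2a, with log2 differences from -1.06 to -0.20. Of these, Hist1h1c differed by -0.20 ± 0.23 (edgeR adjusted p = 0.628).

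At 72, 96, 120 and 240 edgeR called none of the 54 genes between the ages, where 0.0%, 0.402%, 0.0819% and 0.0149% of all tested genes were called. The unadjusted p was under 0.05 in edgeR for 7, 16, 5 and 0 of the 54 genes. Of all 13436 tested genes this held for 668, 1795, 1348 and 672. DESeq2 called 0 of the 54 at each. Median log2 differences were -0.20 at 72, 0.70 at 96, 0.47 at 120 and 0.35 at 240. At 96, 12 genes had all old libraries above all young ones (9.94% of all tested genes) and at 120, 16 did (7.81%). None had them all below at either time (10.7% and 8.63% of all tested genes did). At 72, 5 had them all below (4.51%), and these were Hist1h1b, Hist1h2ak, Hist1h2bn, Hist1h4k and Hist1h4n, some of them named after their values were seen.

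The change over time was tested against age in 1 step, with the 5 changes from before in old and young compared together. edgeR called 23 of the 54 genes for this interaction (2.91% of all tested genes). Its unadjusted p was under 0.05 for 49 of the 54 and for 1931 of all 13436 tested genes. Hist2h2bb and Hist4h4 had the smallest p (adjusted p = 0.00505 for each), followed by Hist2h2ac (adjusted p = 0.00794). The H2A gene Hist2h2ac had 179, 133 and 171 CPM at 48 in young and 61.3, 34.6 and 64.8 CPM in old livers, against 70.4, 105 and 41.9 CPM at 96 in old and 34.0, 51.9 and 48.6 CPM in young livers. The order of the ages thus differed between the 2 time points, without overlap at 48 and with overlap at 96. The count was 0 in the 24 libraries without Y-linked transcripts, which leave 2 per group, and 35 with DESeq2. It was 4, 15 and 6 without young replicates 1, 2 and 3 at 48, and 6, 10 and 38 without old replicates 1, 2 and 3 at 48. Leaving out young replicate 1 or 3 from before, or 2 or 3 at 120, gave 15, young replicate 1 at 96 gave 13, and old replicates 1 and 2 at 96 gave 14 and 12.

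A group of neighbouring genes in the Hist1 cluster lay lower in old livers than the rest of the family, in the average over the 6 time points. The stretch was noticed in the data, and the average over time points that shows it was added then, so it is given as a description with no test of the group. Averaged over the 6 time points, 7 of the 54 tested genes were called lower in old livers and none higher (2.69% of all tested genes were called lower and 3.45% higher). All 7 lay within chr13:21735064-21832196 (GRCm38), a stretch of 97.1 kb that holds 11 clustered histone genes and ran, in order, through Hist1h4j, Hist1h4k, Hist1h2ak, Hist1h2bn, Hist1h1b, Hist1h3i, Hist1h2an, Hist1h2bp, Hist1h2ao, Hist1h4m and Hist1h4n. Hist1h2bp, Hist1h2ao and Hist1h4m were not tested, and Hist1h2an was tested and not called. The 8 tested genes had log2 differences from -1.22 to -0.84, and the other 46 tested clustered histone genes had differences from -0.70 to 0.44. Of the 8, only Hist1h1b was above the filter's CPM minimum in every library. For Hist1h4j, Hist1h4k, Hist1h2ak and Hist1h2bn all 3 libraries were above it in 6, 7, 9 and 7 of the 12 groups. For Hist1h3i, Hist1h2an and Hist1h4n this held in 10, 4 and 7 groups, so these genes passed through some groups only.

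Hist1h4n and Hist1h4k, both H4 genes, had averaged log2 differences of -1.22 ± 0.22 (edgeR adjusted p = 0.000712) and -1.15 ± 0.21 (adjusted p = 0.000794). Hist1h3i had -1.21 ± 0.23 (edgeR adjusted p = 0.00152) and Hist1h1b -1.16 ± 0.23 (adjusted p = 0.00227). Hist1h2bn, Hist1h2ak and Hist1h4j had -1.07 ± 0.29, -0.97 ± 0.27 and -0.89 ± 0.25, with edgeR adjusted p of 0.0233, 0.0274 and 0.0323. Leaving out each of the 36 libraries in turn left 4 to 8 genes called, and the 4 came without young replicate 2 at 240. Without the time point 48, Hist1h4n and Hist1h4k were called lower (-0.91 ± 0.24 and -0.84 ± 0.23, edgeR adjusted p = 0.0291 and 0.0351; 1.62% of all tested genes were called lower). In that average the largest difference was that of Hist1h1a, 1.00 ± 0.31 and not called (edgeR adjusted p = 0.0689), and Hist2h2bb was called higher (0.80 ± 0.21, edgeR adjusted p = 0.0292; 2.34% of all tested genes were called higher).

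The genes of the stretch lay below the rest at every time point by their medians. The stretch was picked from the average over these same time points, so lower values at each follow in part from that choice and are a description only. At 48 the median log2 difference, old minus young, was -3.18 for the 8 genes and -2.14 for the other 46. At 72 it was -1.50 against -0.14, and at 96 it was -0.20 against 0.84. At 120 it was -0.02 against 0.55, at 240 it was -0.78 against 0.40, and before it was -0.58 against 0.44. At 72 the ranges of the 2 sets, -2.30 to -1.22 and -0.81 to 0.36, did not overlap. Of the genes on chromosome 13 around the Hist1 cluster that are not histone genes, 17 were tested. In the average over the 6 time points Slc17a2, between Hist1h1a and Hist1h2ba, and Cmah, beyond the far end of the cluster, were called lower in old livers (-0.53 ± 0.13 and -0.62 ± 0.17, edgeR adjusted p = 0.0144 and 0.0257). Of all tested genes 2.69% were called lower and 3.45% higher in that average. Over the 50-base words of each gene's models, the median shared with another gene was 78.5% for the stretch and 46.4% for the other tested clustered histone genes. The part of this sharing in the result was not tested.

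**Figure D4:**
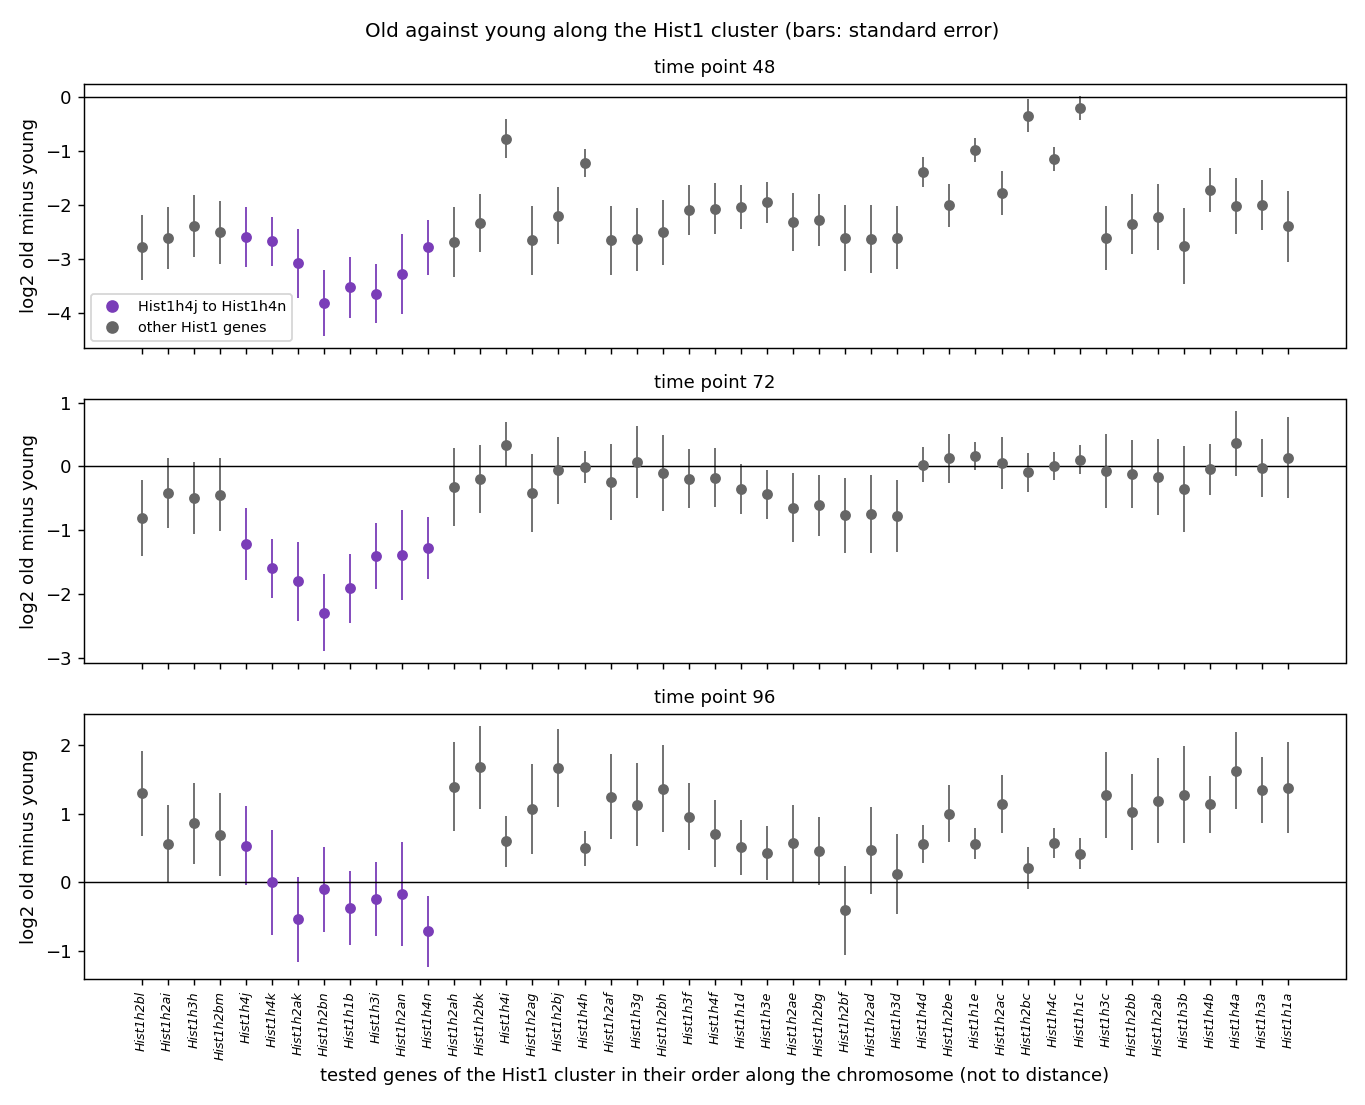
Log2 difference, old minus young (vertical axes; bars are standard errors from edgeR), at 48, 72 and 96 for the tested genes of the Hist1 cluster in their order along chromosome 13 (horizontal axis, not to distance), with the stretch from Hist1h4j to Hist1h4n in purple. At 72 the 8 purple points lie between -2.30 and -1.22 and all grey points lie above them. The stretch was picked from an average that includes these time points, so the lower purple points follow in part from that choice.

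Hist1h1b in the stretch and Hist1h1a outside it form a pair whose words are not shared with any other gene and whose models have nearly the same length, 743 and 741 bases. Hist1h1a, also a replication-dependent H1 gene, had 27.8, 3.24 and 68.3 CPM in old livers at 48 and 84.4, 67.6 and 38.7 CPM at 72. Hist1h1b had 14.4, 3.04 and 37.0 CPM there at 48 and 27.3, 21.1 and 12.1 CPM at 72. In young livers at 72 Hist1h1a had 55.6, 94.8 and 22.7 CPM and Hist1h1b 60.2, 136 and 31.3 CPM. The ratio of Hist1h1b to Hist1h1a within a library was between 1.02 and 2.69 in the 18 young libraries (median 1.41) and between 0.301 and 1.26 in the 18 old ones (median 0.531). It did not overlap between the ages at 48, 72, 96, 120 or 240 and overlapped before. At 72 it was 1.08 to 1.43 in young and 0.311 to 0.324 in old livers, the narrowest range of old livers at any time point. Averaged over the 6 time points Hist1h1a differed by 0.44 ± 0.28 between the ages (edgeR adjusted p = 0.411), old minus young, the highest of the 54 tested genes. Both genes were thus picked after their values were seen, from opposite ends of that order, and the ratio is a description of this pair only.

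The summed level of the 11 genes was also set over that of the rest of the Hist1 cluster. The stretch was picked for its lower level in old livers in these same libraries. A lower ratio in old livers follows from that choice, and the values are a description only. In young livers it was 0.0347 ± 0.0095 (SD, n = 3) before, 0.139 ± 0.0053 at 48 and 0.114 ± 0.037 at 72. In old livers it was 0.0213 ± 0.012, 0.0325 ± 0.025 and 0.0384 ± 0.0056. The ages did not overlap at 48, 72, 96 or 240 and overlapped before and at 120. Between before and 48 in young livers the 11 genes' sum grew 15.0-fold and that of the rest of the cluster 3.74-fold. The rest includes Hist1h1e and Hist1h4c, which started at 326 and 139 CPM and rose by only 0.79 and 1.01 on the log2 scale. By gene, the 8 tested genes of the stretch rose by 2.10 to 5.29, within the range of the family. The H2A and H3 sums also grew 9.97-fold and 11.3-fold, so such growth was not particular to the stretch. The old values at 48 ranged from 0.00888 to 0.0595.

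**Figure D5:**
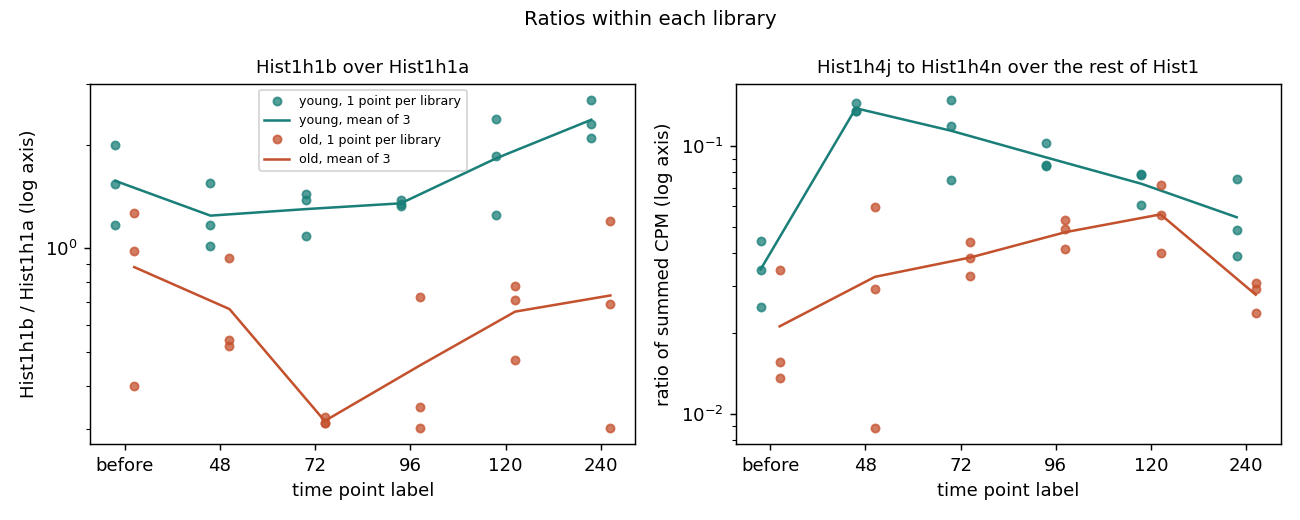
Ratios within each library on log axes against the time point label: Hist1h1b over Hist1h1a (left) and summed CPM of the 11 genes from Hist1h4j to Hist1h4n over the other genes of the Hist1 cluster (right), 1 point per library, lines through means of 3. All 18 young points on the left lie at or above 1.02 and the 3 old points at 72 lie between 0.311 and 0.324.

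The promoters of the pair and of the divergent pair Hist1h2ak and Hist1h2bn are shown because the pair differed in its ratio and the divergent genes were both called in the average over time points. Each window runs from 250 bases before the start to 50 after it, 5' to 3' on the gene's strand, from RefSeq (GRCm38.p6). Capitals mark 3 motifs on either strand, and no matches overlap in these windows. The TATA box was searched as TATAAA, whose reverse match reads TTTATA. The CCAAT box was searched by the letters of its name, with the reverse match ATTGG. The H1 box, known from H1 promoters, was searched as AAACACA. The windows are chr13:23763418-23763717 (plus strand), chr13:21780576-21780875 (minus strand) and chr13:21753826-21754125 (plus strand), and the last also covers the start of Hist1h2ak on the minus strand.

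Hist1h1a: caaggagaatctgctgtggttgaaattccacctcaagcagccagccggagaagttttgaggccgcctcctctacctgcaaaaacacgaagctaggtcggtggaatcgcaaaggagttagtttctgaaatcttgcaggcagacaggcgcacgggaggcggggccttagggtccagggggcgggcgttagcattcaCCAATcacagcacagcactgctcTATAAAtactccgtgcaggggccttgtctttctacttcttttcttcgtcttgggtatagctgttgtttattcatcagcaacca
Hist1h1b: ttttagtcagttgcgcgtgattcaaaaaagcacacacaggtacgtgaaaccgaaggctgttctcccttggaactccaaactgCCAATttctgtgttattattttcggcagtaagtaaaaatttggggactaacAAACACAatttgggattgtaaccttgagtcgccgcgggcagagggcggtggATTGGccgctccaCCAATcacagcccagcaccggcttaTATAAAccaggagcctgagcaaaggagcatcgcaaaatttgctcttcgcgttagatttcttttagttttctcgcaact
Hist1h2bn: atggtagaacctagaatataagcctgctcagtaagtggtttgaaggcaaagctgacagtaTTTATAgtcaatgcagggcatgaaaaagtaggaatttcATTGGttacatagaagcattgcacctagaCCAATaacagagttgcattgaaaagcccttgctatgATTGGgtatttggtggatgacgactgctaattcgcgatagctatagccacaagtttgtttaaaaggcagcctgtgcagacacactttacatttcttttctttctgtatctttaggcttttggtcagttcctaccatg

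Hist1h1b had 3 CCAAT matches and the H1 box letters AAACACA, and Hist1h1a had 1 CCAAT match and no AAACACA in this window. RefSeq promoters were matched for 57 of the 63 genes, with 58 windows in all. CCAAT was present in 84.5% of these windows and in 37.4% of all 32851 RefSeq promoter windows of the same length. It was in all windows of H1, H2A, H2B and H3 genes and in 25% of the H4 windows. TATAAA was present in 58.6% of the members' windows and 13.6% of all. AAACACA was present in 5 of the 6 H1 windows, in 15.5% of all members' windows and in 7.18% of all windows.

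Genes that act on histone messages were read from lists. Slbp, which binds the stem-loop of these messages, rose at 48 in young livers by 1.15 ± 0.21 on the log2 scale (edgeR adjusted p = 0.000148). At 48 it was lower in old than in young livers by -0.81 ± 0.20 (edgeR adjusted p = 0.00801). Eri1, an exonuclease that trims the message end, rose by 1.11 ± 0.20 in young livers at 48 (edgeR adjusted p = 0.000137), and Casp8ap2, a factor of the histone locus body, by 0.64 ± 0.15 (adjusted p = 0.00192). Npat, which drives transcription at the histone locus body, changed by 0.08 ± 0.17 (edgeR adjusted p = 0.79). Lsm10 and Lsm11, parts of the U7 particle that cuts the message end, changed by -0.08 ± 0.21 and 0.74 ± 0.30 (edgeR adjusted p = 0.829 and 0.0799). Of the 15 tested genes for transcription and end processing of histone messages 5 rose and none fell at 48 in young livers, with a median of 0.64. Of 8 tested genes for decay of these messages 3 rose and 2 fell, with a median of 0.13. Of all tested genes 12.2% rose and 9.88% fell there. In old livers at 48, 1 of the 15 rose and 2 fell, and 3 of the 8 rose and 2 fell, where 12.3% of all tested genes rose and 12.1% fell.

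Histone chaperones hold new histones and hand them to DNA. At 48 in young livers 12 of 22 tested chaperone and import genes rose and none fell, with a median log2 change of 0.58. In old livers 10 rose and 1 fell. Between the ages at 48, 9 were lower and 1 higher in old livers. Of all tested genes 12.2% rose and 9.88% fell in young livers, and 12.3% rose and 12.1% fell in old livers. Between the ages 6.88% of all tested genes were called lower and 4.5% higher in old livers. Chaf1a and Chaf1b, subunits of the assembly factor CAF-1, rose in young livers at 48 by 3.38 ± 0.51 and 2.34 ± 0.43 (edgeR adjusted p = 1.85e-05 and 0.000183). Asf1b, a chaperone of H3 and H4 in dividing cells, rose by 4.07 ± 0.53 (edgeR adjusted p = 4.03e-06), and its relative Asf1a changed by 0.19 ± 0.21 (adjusted p = 0.574). Hat1, which acetylates new H4, rose by 2.00 ± 0.31 (edgeR adjusted p = 2.6e-05), and Nasp, a chaperone of H3 and H4, by 0.83 ± 0.18 (adjusted p = 0.00114). Hira, which places H3.3 outside replication, changed by 0.31 ± 0.22 (edgeR adjusted p = 0.329).

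Histone variants are encoded outside the clusters. Of their 11 tested genes 4 rose and 1 fell at 48 in young livers (12.2% of all tested genes rose and 9.88% fell). H2afx, the H2A.X gene, rose by 4.18 ± 0.47 (edgeR adjusted p = 1.05e-06), Cenpa, the centromeric H3, by 3.24 ± 0.49 (adjusted p = 2.02e-05), H2afz by 1.55 ± 0.29 (adjusted p = 0.00028) and H1fx by 4.00 ± 0.93 (adjusted p = 0.00214). The replacement histones H3f3a and H3f3b changed by 0.18 ± 0.28 and -0.21 ± 0.25 (edgeR adjusted p = 0.685 and 0.603). H1f0, the H1 of resting cells, changed by 0.17 ± 0.18 (edgeR adjusted p = 0.537), and H2afv by 0.69 ± 0.28 (adjusted p = 0.0728). At 48, H2afx, Cenpa, H2afz, H1fx and H2afv were lower in old than in young livers, by -2.55 ± 0.43, -2.80 ± 0.47, -1.52 ± 0.29, -3.66 ± 0.87 and -1.32 ± 0.28.

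S phase genes outside the family were read in the same libraries. Of the 24 tested, 22 rose in young livers at 48 and 19 at 72. In old livers 8 rose and 1 fell at 48, 15 rose at 72 and 14 rose at 96. Of all tested genes 12.2% rose and 9.88% fell at 48 and 9.26% rose at 72 in young livers. In old livers 12.3% rose and 12.1% fell at 48, 6.71% rose at 72 and 3.77% rose at 96. The summed level of the S phase genes in young livers was 238 ± 15.5 CPM before, 1342 ± 196 at 48 and 584 ± 203 at 72. In old livers it was 246 ± 39.2, 402 ± 178 and 593 ± 42.4, and it reached 618 ± 133 at 96. At 48, 19 of the 24 were lower in old livers and none higher (6.88% of all tested genes were called lower and 4.5% higher). The clustered histone genes and the S phase genes thus both had their highest summed means at 48 in young livers. In old livers the means at 72 and 96 differed by less than their SDs in both sets. Without old replicate 2 the means at 96 were 1847 CPM for the clustered histone genes and 560.5 CPM for the S phase genes, below those at 72. Beside this, none of the 6 tested markers of macrophages and monocytes rose at 48 in either age, and 3 fell in old livers. None of the 4 tested T and B cell markers rose at 48, and 1 and 2 fell in young and old livers. Of 2 tested neutrophil markers 1 rose in young livers at 48 and none in old livers. Of the 6 tested hepatocyte markers 1 fell in young livers and 4 fell in old livers at 48. Of the 5 tested endothelial markers 2 fell in young and 1 in old livers. Their sum was 329 to 381 CPM before and 197 to 274 CPM at 48 in young livers, and 292 to 409 and 234 to 268 CPM in old livers, without overlap at either age. Summed cholangiocyte markers were 5.83 to 10.7 CPM before and 11.8 to 13.2 CPM at 48 in young livers, and neither of the 2 tested was called. Of 4 tested stellate markers 1 rose in old livers at 48. These marker counts stand beside the shares of all tested genes at 48 given above for the S phase genes. Between the ages at 48 no marker of any of these lists was called. The part of these cells in the result was not tested.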

How the data were processed

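Per-gene counts of total RNA libraries were deposited by the authors as 1 table per sample, with raw whole-number counts and no normalization. Per the labels' protocols, RNA was depleted of ribosomal RNA with the Zymo-Seq Ribo-free kit after spike-in. The submitters' processing notes name GRCm38, mm10, bcl2fastq 2.20.0, Trimmomatic 0.39, FastQC 0.11.9, STAR 2.7.5b, SAMtools 1.10, Picard 2.20.8, deepTools 3.5.0 and featureCounts, with no role or order. The strand setting, the counting of reads with several matches and the annotation are not given in the sources used here.

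From these counts, edgeR 4.0.16 (R 4.3.3) filtered genes with filterByExpr over the 12 groups (minimum count 10), scaled totals by TMM (factors 0.930 to 1.133) and fitted 1 mean per group in 1 quasi-likelihood model over 36 libraries. Standard errors are the log2 change over the square root of F. Adjusted p values are Benjamini-Hochberg over all tested genes. The p values rest on the spread between libraries within groups, estimated together over all 12 groups. A comparison of 2 groups thus also draws on the spread in the other groups. DESeq2 1.42.0, other scalings and filters, a replicate block, Y-linked transcripts as a term or a split, fits of the compared groups alone and fits lacking 1 library were tried as alternatives. The model was tested on simulated data that had the same spread for every gene and no outlying libraries. That test cannot speak to the calls here that moved with single libraries. Groups came from the labels of age and time point.

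The family and the lists were chosen with earlier results of these data known. Named genes were the 3 most abundant of each class, the 3 with the smallest p among those called in 6 comparisons, 3 germ line genes and 21 fixed genes outside the clusters; others were named after their values were seen. Transcript sequences came from GENCODE M21.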

Additional observations from a re-analysis of the deposited data

Results flagged for a closer look

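The change over time was called different between the ages for 23 of the 54 tested clustered histone genes (2.91% of all tested genes). The test was edgeR's quasi-likelihood F test of the 5 changes from before, old against young. The count depended on the libraries used: it ranged from 4 to 38 when each library was left out in turn. No clustered histone gene was called in the 24 libraries without Y-linked transcripts. Among the genes named, the adjusted p was 0.00505 for Hist2h2bb and for Hist4h4, 0.00794 for Hist2h2ac, 0.00942 for Hist1h4c, 0.0221 for Hist1h2bn and 0.0242 for Hist1h3i. It was 0.0266 for Hist1h4d, 0.0284 for Hist1h3a, 0.0286 for Hist1h3g and 0.0303 for Hist1h1b. For Hist1h2bl it was 0.037, for Hist1h1d 0.0395, for Hist1h4h 0.0414 and for Hist1h1e 0.0419. Outside the clusters the adjusted p was 0.00376 for H2afx, 0.00441 for Cenpa, 0.0105 for Asf1b, 0.0142 for Chaf1b, 0.0244 for H2afz and 0.0368 for Chaf1a. All of these were lower in old than in young livers at 48.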

How the results depend on the processing

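Counts are of clustered histone genes called. The share of all tested genes called under each setting is not given beside them, so they show only how the counts of this family moved. With the compared groups fitted alone they were 20 for young 96 and 10 for young 120 against before, 0 for old 48, 5 for old 120 and 0 for old 240 against before, 0 for young 72 against 48 and 0 for old against young at 48. With DESeq2 they were 7 for young 96, 7 for old 120, 10 for young 72 against 48 and 35 for the interaction. With the 24 libraries without Y-linked transcripts they were 1 for old 48, 3 for old 72, 2 for old 96, 0 for old 240, 0 for young 72 against 48, 4 for the average over time points and 0 for the interaction. Without a filter old 120 gave 1. With Y-linked transcripts as a term old 120 gave 1 and young 72 against 48 gave 6. Total-count scaling gave 0 for old 240 and 0 for young 72 against 48. The average without 48 gave 3. Replicate numbers did not pair the libraries (mean correlation of same-numbered libraries 0.0539 within an age, range -0.364 to 0.568), and the replicate block gave 9 for young 72 against 48, 8 for old 48, 22 for old 72, 27 for old 96, 49 for old against young at 48 and 20 for the interaction.

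Leaving out 1 library gave 52 to 53 for young 48, 20 to 45 for young 72, 0 to 32 for old 48, 2 to 20 for old 72, 1 to 28 for old 96 and 0 to 1 for old 240, each against before. It gave 0 to 22 for young 72 against 48, 0 to 6 for old 72 against 48, 43 to 53 for old against young at 48, 4 to 8 for the average and 4 to 38 for the interaction. The cause of these shifts was not tested. No named gene's change reversed: of 1613 values under other settings 151 fell short of the threshold, and of 1908 with 1 library left out 314 did. Genes with few counts before have wide errors.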
